A study of Mus musculus with 16 samples.

Results

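Wounds of db/db mice treated with estrogen were compared with wounds of db/db mice treated with the vehicle, sesame oil, on the arrays labelled day 7. The arrays were chosen by their labels alone, and they were 4 of the 16 arrays of the series, 2 for the db/db + estrogen group and 2 for the db/db + vehicle group. Both groups were female diabetic mice of the strain C57BLKS/J Iar-+Leprdb/+Leprdb, homozygous for the db mutation of the leptin receptor gene Lepr and aged 10 weeks, and both carried full-thickness skin wounds of 4 mm on the back. Wounds of the estrogen group received estradiol benzoate dissolved in sesame oil (0.75 μg/g/day), put on daily, while those of the vehicle group received only the oil, which was common to both. The other day 7 arrays, which serve here only to place levels, came from untreated db/db wounds and from WT wounds of female C57BL/6J mice, a different strain, aged between 10 and 12 weeks. RNA was taken from homogenized wound tissue with the skin around it. The sources used here do not say whether replicate arrays came from separate mice, so p-values measure only the spread between these samples.

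The db/db mouse lacks leptin signalling, becomes obese and diabetic, and closes skin wounds slowly. A skin wound first draws neutrophils and then macrophages, while keratinocytes at its edge switch to wound keratins and cornified envelope proteins and crawl over the gap, and these programmes are switched off as the wound closes and the matrix is rebuilt. Estrogen acts through the nuclear receptors Esr1 and Esr2 in keratinocytes, fibroblasts and immune cells, and the progesterone receptor gene Pgr and the growth regulator Greb1 are classical targets of Esr1.

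Levels are log2 signals relative to the 75th percentile of the same array. Probes entered the test if 1 group or more had both its arrays well above background for them. It was called where limma gave an unadjusted two-sided p below 0.05 and a fold change above 2, and calls that also passed 0.05 after Benjamini-Hochberg adjustment are counted beside. Of 30150 probes tested, 2709 (8.99%) were called, 1406 (4.66%) higher and 1303 (4.32%) lower with estrogen. After adjustment 773 probes (2.56%) were called, 393 higher (1.3%) and 380 lower (1.26%). Read by 1 probe per gene, 1622 of 17085 genes (9.49%) were called and 510 (2.99%) passed with adjusted p. Of the genes, 4.93% were called higher and 4.57% lower, and 1.49% and 1.5% with adjusted p. These shares are the background for every list count below. The median difference was 0.03 on the log2 scale. The groups did not overlap at 58.8% of probes tested, and 50.7% of probes were on the higher side at any size.

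The 75th percentile of the signal was 1401 and 1918 on the estrogen arrays and 2072 and 1787 on the vehicle arrays, and between 74.8% and 77.8% of probes were well above background. The groups shared both slides, 1 replicate of each on each slide, but estrogen always lay in position 3 and vehicle in position 4, so position and treatment cannot be told apart. The vehicle arrays differed from each other by more than 2-fold at 7.94% of probes, against 2.52% for the estrogen arrays. Of the probes called, 2704 had the same sign on both slides, but the calls were made on these same arrays, which nearly fixes this count. The smallest two-sided p that exact permutation of 2 against 2 arrays can reach is 0.333, and precision is limited by this small number of arrays. Days are given as labelled. For 20 genes of each time point, the db/db over WT fold change was recomputed and set against the value printed in the paper. It lay within 1% of it for 20 of 20 genes on arrays of the other label and for 0 of 20 on arrays of the same label, at both times. The data do not show which of the 2, label or printed day, is exchanged.

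Markers of keratinocytes, fibroblasts and endothelium were well above background on all 4 arrays (4 of 4 in each list), as were the 3 macrophage markers with a named probe. The summed level of 5 skeletal muscle markers was 8.39 on vehicle replicate 1, 6.06 on vehicle replicate 2, and 8.14 and 8.10 with estrogen. That of 4 hair follicle markers was −0.45 and 1.52 with vehicle and 3.07 and 3.53 with estrogen. Vehicle replicate 1 thus had the highest summed muscle level and the lowest summed hair follicle level of the 4 arrays. Myh4 (6.88) was the highest of its 5 muscle markers, and Myh7 stood at 5.09 on this array. Acta1, Ckm and Tnnt3 stood at 6.60, 3.91 and 6.18 on it and were higher on both estrogen arrays. The Schwann cell markers summed to 3.85 and 3.93 with estrogen and to 0.73 and 0.94 with vehicle, and the melanocyte markers to 1.45 and 2.13 against −2.12 and 0.92. In such bulk tissue, fewer cells of a type and less RNA per cell cannot be told apart, and the part of tissue make-up in the results below was not tested.

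The promoters of a few genes named below are shown here, as the 300 bases around the start site in RefSeq (GRCm38.p6), most of them before it. Capitals mark matches, on either strand, to a motif named beside each set.

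Small proline-rich genes, with AP-1 sites TGANTCA in capitals, lie on chromosome 3 at chr3:92364937-92365236, chr3:92407741-92408040 and chr3:92351893-92352192, all on the plus strand.
Sprr2f: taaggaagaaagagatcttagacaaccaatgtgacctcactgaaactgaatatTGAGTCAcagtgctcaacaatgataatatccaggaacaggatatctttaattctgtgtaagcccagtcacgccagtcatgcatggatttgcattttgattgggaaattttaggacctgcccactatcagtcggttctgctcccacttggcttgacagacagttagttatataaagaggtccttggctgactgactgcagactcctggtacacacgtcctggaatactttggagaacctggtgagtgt
Sprr2i: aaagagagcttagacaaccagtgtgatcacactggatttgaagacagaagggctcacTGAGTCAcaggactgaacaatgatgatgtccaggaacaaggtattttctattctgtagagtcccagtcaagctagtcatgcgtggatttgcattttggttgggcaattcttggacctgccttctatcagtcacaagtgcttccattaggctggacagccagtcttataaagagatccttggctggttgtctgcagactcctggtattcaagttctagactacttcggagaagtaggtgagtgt
Sprr2e: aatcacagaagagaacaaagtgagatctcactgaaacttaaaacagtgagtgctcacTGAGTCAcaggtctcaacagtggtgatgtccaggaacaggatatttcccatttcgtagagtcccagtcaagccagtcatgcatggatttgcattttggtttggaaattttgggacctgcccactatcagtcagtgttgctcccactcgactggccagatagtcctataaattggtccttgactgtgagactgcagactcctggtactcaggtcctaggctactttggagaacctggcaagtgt

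Neutrophil-attracting chemokine genes, with NF-kB sites (GGGA, any base, TTTCC) in capitals, lie at chr5:90890995-90891294 and chr5:90785851-90786150 on the plus strand.
Cxcl1: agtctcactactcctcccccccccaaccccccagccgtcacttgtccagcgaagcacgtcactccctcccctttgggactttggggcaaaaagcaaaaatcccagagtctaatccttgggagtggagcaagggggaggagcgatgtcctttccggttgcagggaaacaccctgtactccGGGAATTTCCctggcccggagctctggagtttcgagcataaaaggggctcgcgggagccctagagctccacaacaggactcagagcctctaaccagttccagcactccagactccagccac
Cxcl3: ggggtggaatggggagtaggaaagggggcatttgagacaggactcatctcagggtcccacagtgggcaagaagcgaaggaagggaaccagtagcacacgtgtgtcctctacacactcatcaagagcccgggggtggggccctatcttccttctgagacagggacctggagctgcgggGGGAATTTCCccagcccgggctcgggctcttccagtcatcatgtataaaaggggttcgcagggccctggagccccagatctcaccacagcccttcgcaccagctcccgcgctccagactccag

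Interferon-induced genes, with the core of the interferon-stimulated response element (GAAA, any 2 bases, GAAA) in capitals, lie at chr19:34583279-34583578 on the plus strand and at chr4:156200769-156201068 on the minus strand. In Isg15, 3 matches overlap.
Ifit3: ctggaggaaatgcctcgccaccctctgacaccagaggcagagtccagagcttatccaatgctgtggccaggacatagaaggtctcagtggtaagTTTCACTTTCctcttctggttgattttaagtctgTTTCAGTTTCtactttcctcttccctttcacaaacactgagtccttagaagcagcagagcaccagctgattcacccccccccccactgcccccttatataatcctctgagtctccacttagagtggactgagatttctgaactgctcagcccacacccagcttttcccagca
Isg15: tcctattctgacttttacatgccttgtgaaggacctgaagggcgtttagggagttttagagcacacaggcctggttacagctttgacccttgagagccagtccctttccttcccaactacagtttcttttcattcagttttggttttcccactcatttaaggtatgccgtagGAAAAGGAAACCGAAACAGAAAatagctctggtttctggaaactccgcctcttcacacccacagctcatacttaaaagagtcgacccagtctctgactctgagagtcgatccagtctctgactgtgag

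A gene induced by low oxygen, with the hypoxia response core ACGTG in capitals, lies at chr8:45999801-46000100 on the minus strand.
Ankrd37: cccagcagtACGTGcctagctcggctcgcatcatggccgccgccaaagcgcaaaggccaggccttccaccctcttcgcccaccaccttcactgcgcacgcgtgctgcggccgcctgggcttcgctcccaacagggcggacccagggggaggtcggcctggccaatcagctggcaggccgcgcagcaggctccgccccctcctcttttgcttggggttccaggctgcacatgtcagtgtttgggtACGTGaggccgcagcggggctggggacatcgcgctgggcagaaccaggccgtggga

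The promoter of Pgr, at chr9:8899583-8899882 on the plus strand, held no match to the full estrogen response element (GGTCA, any 3 bases, TGACC), and is shown because Pgr had the largest rise in the estrogen response list.
Pgr: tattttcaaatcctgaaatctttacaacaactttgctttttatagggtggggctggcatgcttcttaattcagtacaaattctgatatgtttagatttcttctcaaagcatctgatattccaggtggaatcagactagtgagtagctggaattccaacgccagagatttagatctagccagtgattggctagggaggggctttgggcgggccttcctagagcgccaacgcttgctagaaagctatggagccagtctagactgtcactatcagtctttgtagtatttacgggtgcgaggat

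Motif matches were counted over the RefSeq promoters. Each list counts all its tested members with a promoter, called or not, so its share does not describe the genes that moved. AP-1 sites were found in 9 of 16 promoters (56.2%) of the wound-induced cornified envelope list, against 7.39% of the 13517 promoters of genes tested and 8.97% of all promoters. The interferon core was found in 25 of 43 promoters (58.1%) of the interferon-induced list, against 3.76% of genes tested and 3.99% of all. The hypoxia core was found in 23 of 32 promoters (71.9%) of the glycolysis and hypoxia list, against 26.1% and 21.8%. The same core was in 5 of 7 promoters of the major urinary proteins (71.4%) and in 4 of 6 of the chemokine list (66.7%), and AP-1 sites were in 12 of 43 of the interferon-induced list (27.9%). NF-kB sites were found in 3 of 6 promoters of the chemokine list, against 0.555% and 0.466%. The full estrogen response element was found in 0 of 24 promoters of the estrogen response list, and in 3 of the 13517 promoters of genes tested (0.0222%) and 0.074% of all. Among genes called with adjusted p, shares lay much nearer those of genes tested. AP-1 sites were in 12.5% of promoters of genes lower and 7.14% of those higher. The interferon core was in 5.36% of those higher and 5.56% of those lower, and the hypoxia core in 27.3% of those lower and 19.2% of those higher. Members of the Sprr2 family are close copies of each other, so their promoters are not independent, and a match is a string of letters and not a measured site.

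**Figure D1:**
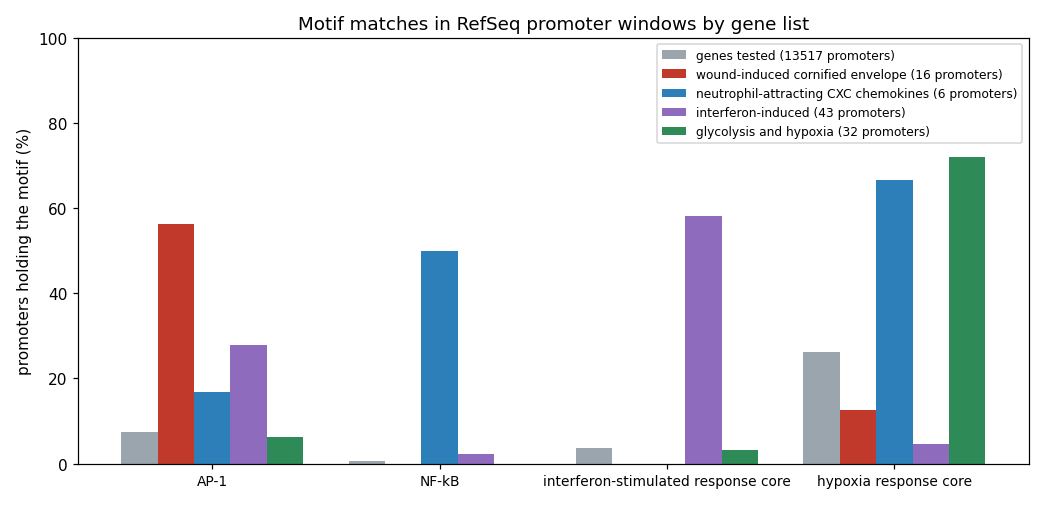
Share of RefSeq promoter windows (y axis, %) that hold each motif (x axis) among genes tested and among 4 gene lists, with the number of promoters in brackets. Lists count all tested members, called or not. AP-1 sites stand out in the cornified envelope list (56.2% against 7.39%), and the interferon core in the interferon-induced list (58.1% against 3.76%).

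Genes of the estrogen receptors and their usual targets were read first, since they check the treatment. Of 26 genes tested, 5 rose and 1 fell, and 3 rose with adjusted p, namely Pgr, Greb1 and Lifr, the receptor of leukemia inhibitory factor. The list median was 0.04, near that of all genes. Pgr stood at −1.40 and −1.09 on the estrogen arrays and at −3.76 and −4.11 on the vehicle arrays. Both estrogen arrays were higher, by 2.68 ± 0.36 (SE) on the log2 scale, a 6.43-fold difference (limma, adjusted p = 0.0071). Pgr was not well above background on either WT or either untreated db/db array, and was so on both vehicle arrays. Greb1 stood at 2.77 and 2.90 with estrogen, at 0.45 and 0.28 with vehicle, and at −5.19 and −3.57 in untreated db/db wounds. The 3 db/db groups did not overlap, and Greb1 rose 5.56-fold from vehicle to estrogen (limma, adjusted p = 0.04). Esr1 itself stood at −2.10 and −1.85 with estrogen and at −3.31 and −3.41 with vehicle. It was called only before adjustment (2.61-fold, adjusted p = 0.067), and another probe of Esr1 was not called (difference 0.85, adjusted p = 0.1). Esr2 (difference −0.44) and the membrane receptor Gper1 (−0.10) were not called. The gene called lower was Ltf, lactoferrin, whose difference was −0.32 on slide 1 and −3.51 on slide 2.

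**Figure D2:**
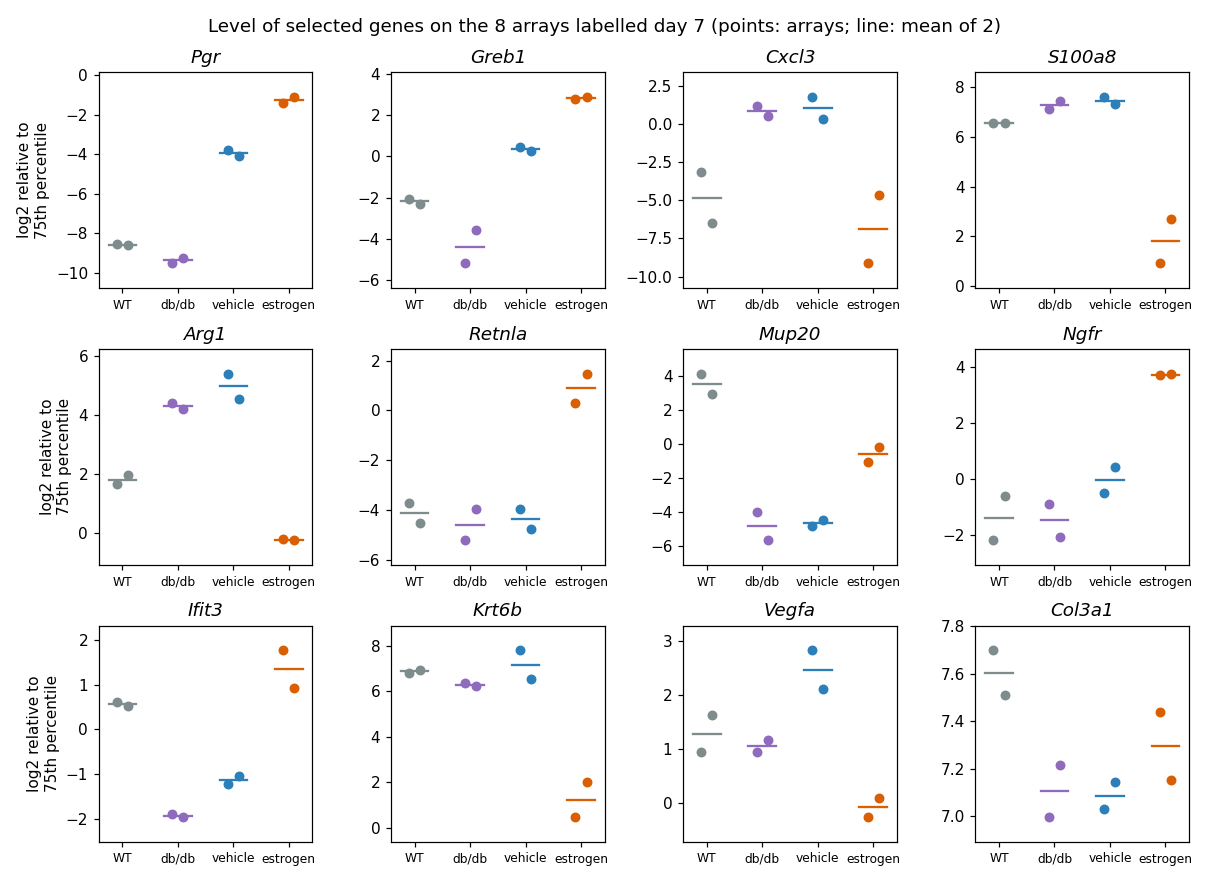
Level of 12 genes (y axis, log2 signal relative to the array's 75th percentile) on the 8 arrays labelled day 7, in WT, untreated db/db, db/db + vehicle and db/db + estrogen wounds. Points are arrays and lines the mean of 2; Pgr rises from untreated to vehicle to estrogen, while S100a8, Arg1 and Krt6b are lowest on the estrogen arrays.

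The largest falls of the comparison were in the wound-induced cornified envelope, that is the small proline-rich proteins and Lce3 proteins that activated keratinocytes cross-link into their outer shell. Of 18 genes tested, 16 fell and 0 rose, 15 of them with adjusted p, against 4.57% of all genes called lower. Like all lists here, this one was chosen with earlier results of these data known, so its count is a description and not a test. The list median was −6.62. Sprr2f stood at 4.35 and 2.67 with vehicle and at −8.39 and −8.62 with estrogen, where it was not well above background on either array. It was at least 1735-fold lower with estrogen (limma, adjusted p = 0.0012). Untreated db/db (0.50 and 1.83) and WT wounds (0.02 and 1.09) were on the side of the vehicle group. Sprr2i fell from 5.49 and 3.02 to −7.06 and −7.45, at least 2857-fold, and Lce3a from 4.52 and 3.20 to −7.45 and −8.10, at least 2211-fold. Sprr2g and Sprr2e remained detected with estrogen on both arrays and fell, with log2 differences of −9.70 ± 0.85 and −8.96 ± 0.67 (SE). Sprr1b, from another branch of the family, fell from 5.15 and 2.82 to −1.17 and −2.05 (limma, adjusted p = 0.011). The member called only before adjustment was Sprr1a (−3.67). The count was 16 without any 1 of the 4 arrays and with normexp background correction. The summed level of 4 keratinocyte markers was 8.74 and 8.37 with estrogen and 8.60 and 9.0 with vehicle. Because Sprr2 genes are near-identical, their probes may read one another's transcripts.

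Wound keratins moved the same way. Of 8 tested, 4 fell with adjusted p and 1, Krt75, rose before adjustment. Krt6b, a keratin that keratinocytes switch on within the wound edge, stood at 7.78 and 6.52 with vehicle and at 0.49 and 2.00 with estrogen, a fall of 5.90 ± 0.54 (SE, adjusted p = 0.0017). Its level in untreated db/db (6.36 and 6.21) and WT wounds (6.82 and 6.91) lay between 6.21 and 6.91. Krt6a fell by 3.88, Krt16 by 3.70 and Krt17 by 2.05, each without overlap between the groups, as at 58.8% of all probes tested. By contrast, Krt1 (−1.27) and Krt10 (−0.27), the keratins of intact upper epidermis, were not called. Among 48 genes of epidermal differentiation 6 fell and 1 rose, with 1 fall past adjustment, in repetin (Rptn, −4.87, adjusted p = 0.022). The gene called higher was Krt15, a keratin of basal and hair follicle stem cells, at 6.13 and 5.90 with estrogen and at 2.25 and 5.16 with vehicle (adjusted p = 0.2), a call that ended under 5 alternatives, among them leaving out vehicle replicate 1 or either estrogen array. The 6 falls of this list were 2 without estrogen replicate 2 and 2 without vehicle replicate 1.

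**Figure D3:**
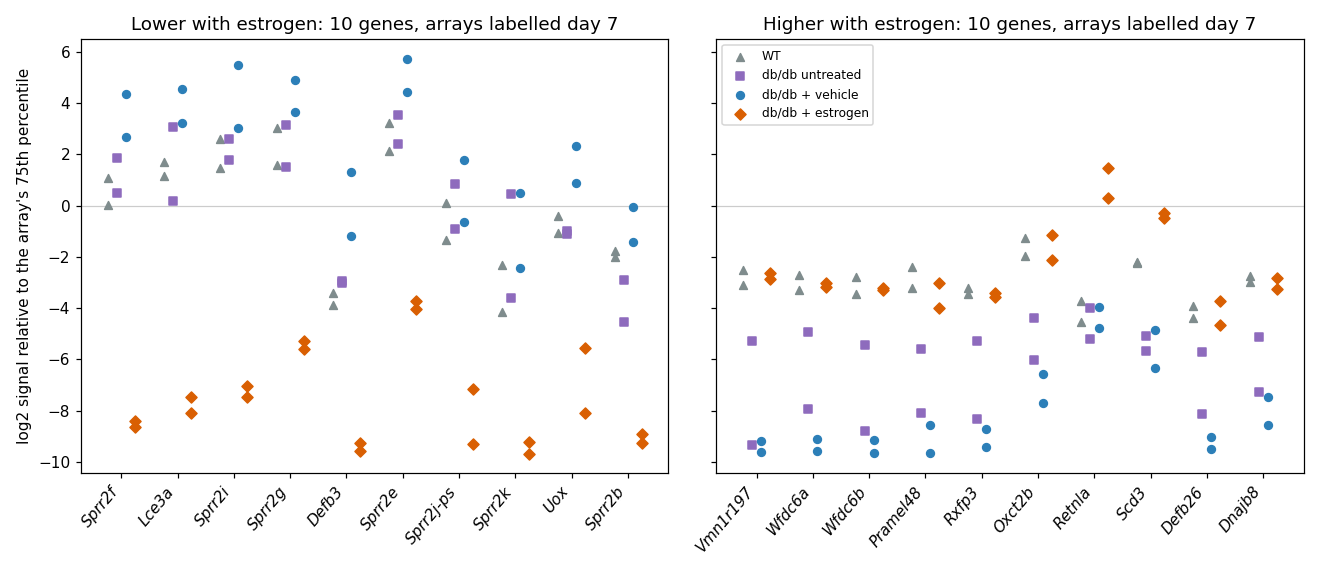
Level (y axis, log2 signal relative to the array's 75th percentile) of the 10 genes with the largest fall and the 10 with the largest rise among calls with adjusted p and no overlap, on the 8 arrays labelled day 7. Each point is an array. In the left panel both estrogen arrays lie below the other 6, and in the right panel both estrogen arrays lie above both vehicle arrays for each gene.

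Genes of neutrophils and of the chemokines that draw them fell together. In the neutrophil list 22 of 37 genes tested fell and 2 rose, against 4.57% of all genes called lower and 4.93% higher. With adjusted p 16 fell, and the median was −2.41. S100a8, a subunit of calprotectin, stood at 7.61 and 7.31 with vehicle and at 0.92 and 2.69 with estrogen. It was 50.4-fold lower (limma, adjusted p = 0.0012), and its level in WT (6.56 and 6.55) and untreated db/db wounds (7.14 and 7.46) was high as well. S100a9, its partner, fell 27.2-fold, and the stefin Stfa2l1 also fell 27.2-fold. The receptors Fpr1 (−4.53), Fpr2 (−4.32) and Cxcr2 (−2.90) fell with adjusted p. The granule proteins Ngp, Mpo and Camp were not called. Mpo stood at −3.19 and −3.44 with estrogen and −3.03 and −0.73 with vehicle, and the untreated db/db wounds were higher than both, at 2.98 and 0.57. S100a8 and S100a9 are made by activated keratinocytes too. The summed level of the 4 neutrophil markers with a named probe was 2.60 and 4.63 with estrogen and 8.72 and 8.65 with vehicle. Of these markers, 3 were well above background on all 4 arrays and Ngp on 3 arrays. This sum reflects mainly S100a8 and S100a9, since Ngp stood at −6.11 and −4.21 with vehicle and Mpo was low as well. The 2 genes called higher were Il1r2 and Itgam, of which Itgam is shared with macrophages and had 2 other probes that were not called and had the opposite sign.

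All 8 chemokine and granulocyte growth factor genes tested were lower with estrogen, 6 were called and 4 passed adjustment, with a median of −3.53. Cxcl3 stood at 1.79 and 0.35 with vehicle and at −9.12 and −4.62 with estrogen, and was above background on 1 estrogen array (adjusted p = 0.032). Cxcl5 stood at 3.34 and 2.35 with vehicle and at −5.63 and −2.07 with estrogen, a 103-fold fall. Cxcl1 fell by 3.79 ± 0.60 (SE), and Csf3, which drives neutrophil production and was above background on 1 estrogen array, by 5.59 ± 1.11. Cxcl2 was called before adjustment only (−3.27, adjusted p = 0.08). In each of these genes both estrogen arrays lay below both vehicle arrays, and estrogen replicate 1 was the lowest. Since the groups did not overlap at 58.8% of all probes tested, this adds little to the calls.

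Inflammatory cytokines fell in most of the list, 19 of 37 genes tested, while 2 rose, and 5 falls passed adjustment. Il1b, the chief product of the inflammasome, stood at 2.06 and 1.86 with vehicle and at −4.55 and −0.99 with estrogen (26.5-fold, adjusted p = 0.039). Both estrogen arrays lay below both vehicle arrays, but far apart from each other. Nos2, the inducible nitric oxide synthase, fell 17.5-fold (adjusted p = 0.025), with estrogen arrays at −2.59 and −2.42 and vehicle arrays at 1.43 and 1.83. Ptgs2 (cyclooxygenase 2), Il1f9 and Socs3 were the others past adjustment. Il6 fell before adjustment (−3.98, adjusted p = 0.052). Tnf was called at −1.04 with an adjusted p of 0.24, and the call ended under 9 of the alternatives tried. Il10, which limits inflammation, was not called (difference 0.66). Without estrogen replicate 1 the falls were 12, and without vehicle replicate 1 they were 11. Among CC chemokines, which attract monocytes and eosinophils, 3 of 19 fell and 1, eotaxin (Ccl11), rose, 0 of them past adjustment, and the median was 0.09.

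Acute phase and antimicrobial genes fell in 14 of 23 tested and rose in 0, and 7 falls passed adjustment. Defb3, a defensin of skin, stood at 1.31 and −1.18 with vehicle and was not well above background with estrogen, at least 159-fold lower (adjusted p = 0.0012). The serum amyloid gene Saa3 stood at 6.82 and 7.26 with vehicle and at 0.38 and 3.14 with estrogen. It fell 38.9-fold and Saa1 31.7-fold, while haptoglobin (Hp, −0.03) and Reg3g (−2.07) were not called. The falls were 13 without any 1 array and 12 with normexp.

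General macrophage markers showed little difference, with 1 of 26 genes higher, 2 lower and a median of −0.06. The share called, 11.5%, was near the 9.49% of all genes. Itgam was the gene called higher, and its 2 other probes were not called and had the opposite sign. Adgre1 (F4/80) was not called (0.51), nor was Csf1r, the receptor for macrophage growth factor (0.47). The scavenger receptor Marco fell 21.9-fold, from 2.60 and 2.18 to −1.96 and −2.15 (adjusted p = 0.011). Genes of alternatively activated macrophages split, with 8 of 26 higher and 6 lower. Retnla, a secreted product of interleukin 4 stimulated macrophages, stood at 0.29 and 1.48 with estrogen and at −3.95 and −4.76 with vehicle. It rose 37.7-fold (limma, adjusted p = 0.0053), and WT (−3.73 and −4.53) and untreated db/db wounds (−5.22 and −3.99) were as low as the vehicle group. Arg1, arginase 1, went the other way, from 5.39 and 4.53 with vehicle to −0.21 and −0.23 with estrogen, a 36.1-fold fall (adjusted p = 0.0019). Chil3, which encodes Ym1, also fell, from 3.09 and 2.55 to −0.60 and 0.76 (6.68-fold, adjusted p = 0.049). The mannose receptor Mrc1 was not called (0.63). In the Cd209 family of lectins, Cd209a, Cd209b, Cd209d, Cd209e, Cd209f and Cd209g rose before adjustment. Cd209b stood at −1.56 and −0.85 with estrogen and −3.66 and −6.03 with vehicle, and Cd209f at 0.62 and 0.98 against −0.43 and −4.61. Both had little spread with estrogen and much with vehicle. The list had 5 genes higher without estrogen replicate 2.

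**Figure D4:**
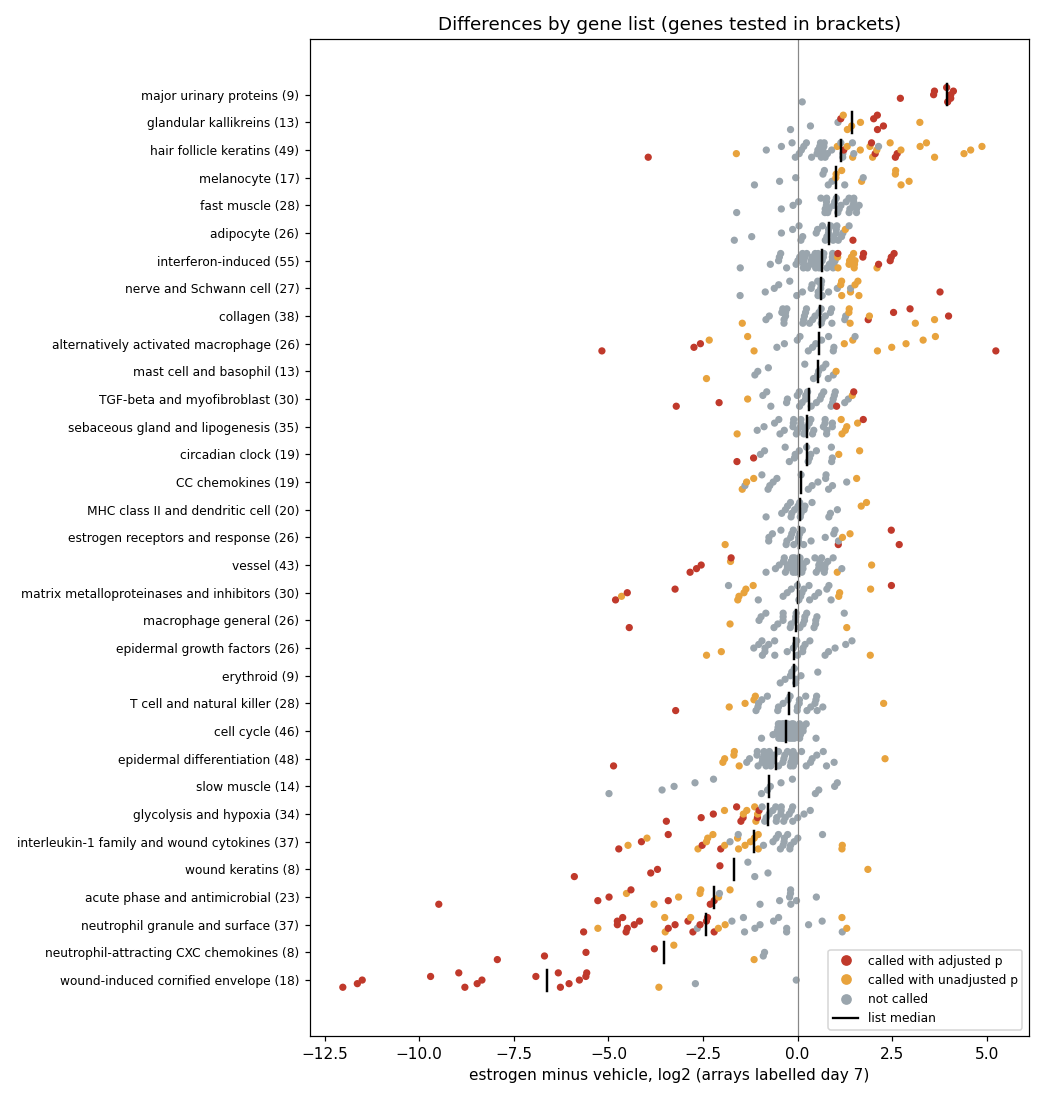
Difference between estrogen and vehicle (x axis, log2) for each gene tested in 33 lists (y axis, number tested in brackets), ordered by list median (black line). Red points were called with adjusted p, orange points with unadjusted p only, grey points not; the cornified envelope list has the lowest median (−6.62) and the major urinary proteins the highest (3.94).

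Interferon-induced genes rose. Of 55 tested, 17 rose and 0 fell, 7 of them with adjusted p, against 4.93% of all genes called higher. The median was 0.65, with 48 genes on the higher side. Ifit3, an antiviral effector, stood at 1.77 and 0.92 with estrogen, −1.22 and −1.04 with vehicle, −1.90 and −1.96 in untreated db/db wounds, and 0.61 and 0.53 in WT wounds. The estrogen arrays were higher than the vehicle arrays by 2.47 ± 0.49 (SE, adjusted p = 0.031) and above those of WT. Isg15 stood at 3.19 and 2.57 with estrogen and 1.01 and 1.27 with vehicle. It rose 3.34-fold (adjusted p = 0.045), and Ifi44 5.85-fold (adjusted p = 0.019). The regulator Irf7 was called before adjustment only (1.37, adjusted p = 0.14). Without estrogen replicate 1, 11 genes of the list rose, and without vehicle replicate 1, 15 rose and 3 fell. MHC class II genes did not follow: 2 of 20 rose and 0 fell, and H2-Ab1 (−0.16) and Cd74 (0.01) were not called. T cell and natural killer genes had 1 higher and 5 lower of 28, with granzyme E (Gzme) lower past adjustment (−3.22), Cd3e not called (0.05), and 11 lower without vehicle replicate 1 but 2 without vehicle replicate 2. Mast cell genes had 1 higher and 1 lower of 13.

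Matrix genes moved in both directions. Among 30 metalloproteinases and inhibitors 9 fell and 4 rose. Mmp9 and Mmp8, proteases that neutrophils carry, fell by 4.50 ± 1.04 and 3.24 ± 0.62 (SE), and Mmp1b was not above background with estrogen and at least 5.85-fold lower. Timp3 rose (2.48, past adjustment) and Timp1 fell before adjustment (−1.42). Of 38 collagen genes 10 rose and 1 fell, 4 rises with adjusted p, and the median was 0.59. Col6a6 stood at −3.78 and −4.19 with estrogen and at −7.70 and −8.25 with vehicle, where it was not well above background on either array (at least 9.62-fold, adjusted p = 0.011). Col28a1 rose 7.84-fold. The main fibrillar collagens Col1a1 (0.14) and Col3a1 (0.21) were not called. Among 30 TGF-beta and myofibroblast genes 3 rose and 3 fell, with the fibroblast protease Fap higher (1.48, adjusted p = 0.025) and tenascin C (Tnc, −2.08) and activin A (Inhba, −3.21) lower, all past adjustment. Acta2, smooth muscle actin, was not called (−0.29).

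Genes of glycolysis and low oxygen were lower, 14 of 34 called and 0 higher, 8 of the falls with adjusted p, and 31 of 34 on the lower side. Vegfa, the main vessel growth factor, stood at 2.83 and 2.12 with vehicle and at −0.25 and 0.10 with estrogen. It fell 5.85-fold (limma, adjusted p = 0.0075), and untreated db/db (0.94 and 1.17) and WT wounds (0.94 and 1.63) lay between. Egln3, a prolyl hydroxylase induced by hypoxia, fell 11.1-fold and Ankrd37 4.69-fold. Hexokinase 2 (Hk2) fell 2.03-fold, and the glucose transporter Slc2a1 was not called (−0.83). Without vehicle replicate 1 the falls were 8. Of 43 vessel genes 5 fell and 2 rose, with the tip-cell genes Apln (−2.84) and Esm1 (−2.67) lower past adjustment. The endothelial markers Pecam1 (0.24) and Kdr (0.04) were not called. EGF receptor ligands and keratinocyte growth factors had 2 lower, Hbegf (−2.41) and Tgfa (−2.02), and 1 higher, Fgf10 (1.92), of 26, with 0 past adjustment. Their share called, 11.5%, was near the 9.49% of all genes.

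Cell cycle genes gave 0 calls of 46 with limma, and 3 had an unadjusted p below 0.05, all 3 lower. Mki67 (−0.31) and Top2a (−0.18), markers of dividing cells, were not called, and 38 of 46 genes were on the lower side with a median of −0.30.

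Genes of hair follicle, pigment and nerve were higher. In the hair list 20 of 49 tested rose and 2 fell, 5 rises with adjusted p, and the median was 1.14. Krt25 and Krt71, keratins of the inner root sheath, were called before adjustment only. Krt25 stood at 0.99 and 1.40 with estrogen and at −5.23 and −1.52 with vehicle, and Krt71 at 2.34 and 2.84 against −4.08 and 0.46. The spread of the vehicle arrays was large, as replicate 1 was lowest of the 4 in both genes. The rises past adjustment were Krt82, Krtap4-7, Krtap8-1, Krtap9-3 and the stem cell receptor gene Lgr5. The hair list had 8 rises without vehicle replicate 1, 13 without estrogen replicate 2, and 11 with normexp. Melanocyte genes rose in 8 of 17 and fell in 0, none with adjusted p, and the count was 2 without vehicle replicate 1, 2 without estrogen replicate 2 and 4 with normexp. Tyrp1, an enzyme of melanin synthesis, stood at −1.91 and −0.96 with estrogen and −6.09 and −2.67 with vehicle. Of 27 nerve and Schwann cell genes 8 rose and 0 fell, and Ngfr, the low affinity neurotrophin receptor, alone passed adjustment. Ngfr stood at 3.69 and 3.75 with estrogen and −0.50 and 0.41 with vehicle, and −0.90 and −2.07 in untreated db/db wounds. It rose 13.6-fold (adjusted p = 0.035), with little spread on the estrogen arrays. The nerve list had 5 rises with normexp and 5 without vehicle replicate 2.

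Secretory gene families rose as groups. Of 9 major urinary protein genes tested, which encode carriers of small volatile molecules, 8 rose, all 8 with adjusted p, and the median was 3.94. Mup20 stood at −1.05 and −0.17 with estrogen, −4.85 and −4.46 with vehicle, −3.99 and −5.67 in untreated db/db wounds, and 4.13 and 2.93 in WT wounds. The estrogen arrays were 16.5-fold above the vehicle arrays (adjusted p = 0.022) and remained below both WT arrays. Mup genes are close copies of each other, so the 8 calls are not independent. Of 13 glandular kallikreins of the Klk1 group 10 rose and 0 fell, 5 with adjusted p. Klk1, the serine protease that releases kinins, stood at −3.89 and −3.79 with estrogen and −6.24 and −5.65 with vehicle (4.31-fold, adjusted p = 0.011). Klk1b24 and Klk1b4 rose 4.32-fold and 4.82-fold, and Klk1b11 was called before adjustment only (9.38-fold, adjusted p = 0.056). With normexp 6 kallikreins rose.

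Few adipocyte genes were called, while sebaceous and lipogenic genes were called more often. The adipocyte list had a median of 0.82, and the summed level of its 4 markers was 7.12 and 7.55 with estrogen and 6.65 and 6.70 with vehicle. Of 26 adipocyte genes 2 rose, Lpl (2.75-fold, adjusted p = 0.044) and Pparg (2.40-fold, adjusted p = 0.066), and 0 fell, although 22 were on the higher side. Of 35 sebaceous and lipogenic genes 6 rose and 1 fell (20% called, against 9.49% of all genes). Scd3, a desaturase of sebaceous glands, was read by probes that gave different sizes. The brightest rose 3.33-fold (adjusted p = 0.043), and another stood at −0.28 and −0.47 with estrogen and −6.33 and −4.85 with vehicle, a 37.0-fold rise (adjusted p = 0.0018). Slow muscle genes (14 tested), fast muscle genes (28) and erythroid genes (9) gave 0 calls with limma, and 0 had an unadjusted p below 0.05. Myh7, the slow myosin chain, stood at 5.09 on vehicle replicate 1 and at −3.69 on vehicle replicate 2, with estrogen arrays at −4.70 and −3.88. Among 19 clock genes 2 fell with adjusted p, Cry1 and Bhlhe40, and 2 rose without it, Dbp and Hlf.

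Most of the largest rises were at genes that were dim on the vehicle arrays. Vmn1r197, a vomeronasal receptor gene, stood at −2.64 and −2.85 with estrogen and was not well above background with vehicle, at least 22.7-fold higher (limma, adjusted p = 0.018). WT wounds stood at −2.53 and −3.09, and the untreated db/db arrays at −5.29 and −9.33. Wfdc6a, Wfdc6b and Defb26, which belong to families of secreted antimicrobial proteins, were at least 17.7-fold, 15.98-fold and 8.28-fold higher. Over the 16 arrays their levels correlated with those of Vmn1r197 at 0.9919, 0.9975 and 0.9776. Those of Rxfp3, Dnajb8 and Pramel48, also among the largest rises, did so at 0.9922, 0.9868 and 0.9633. The 16 arrays include the 4 on which these genes were chosen, which favours such correlation. The rises are thus described as 1 pattern and not as independent results, and its cause was not tested. Of the probes called higher, 279 (19.8%) were not well above background on either vehicle array, against 127 lower calls dim on both estrogen arrays. Rxfp3, a relaxin family receptor, was at least 13.7-fold higher by 1 probe, while another probe was not called (0.27).

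Leaving out 1 array kept the count of the cornified envelope list but moved those of many others, among them the hair, melanocyte, cytokine, glycolysis and interferon lists. It also cut the calls with adjusted p. Of 132 named values called, 45 lost the call under at least 1 alternative. Without 1 array the cornified envelope list had 8 to 15 falls past adjustment, the neutrophil list 4 to 6, the major urinary proteins 0 to 3 rises and the interferon list 0. Lists with few calls also turned on single arrays. Without vehicle replicate 1, the general macrophage list had 5 falls, the MHC class II list 0 rises and 2 falls, the growth factor list 0 falls and the sebaceous list 3 rises. Without vehicle replicate 2, the growth factor list had 5 falls, the slow muscle list 4 falls and the CC chemokine list 3 rises. The MHC class II list then had 3 rises, and its median was 0.67, against −0.56 without vehicle replicate 1, so its direction turned on the vehicle array kept. List medians near 0 also changed sign, that of the cell cycle list to 0.04 and that of CC chemokines to −0.11 without estrogen replicate 2. Without estrogen replicate 1, the TGF-beta list had 6 rises and the CC chemokine list 1 fall, and without estrogen replicate 2 the sebaceous list had 3 rises.

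The same contrast on the arrays labelled day 14, which share no array with the day 7 contrast, was set beside it. Of 30632 probes, 3 (0.00979%) had a difference between the days with adjusted p, 1 larger upward on day 7 (0.00326%) and 2 larger downward (0.00653%), and 2 of them had a symbol, Sprr2i and Gzmn, a granzyme. Both were well above background on 0 of the 2 estrogen arrays of day 7 and on both estrogen arrays of day 14, so the size of their day 7 difference is a bound. Sprr2i stood at 5.34 and 3.54 with estrogen on day 14. With a replicate block, with the crossed pairing, or with probes well above background on all 4 arrays, 0 probes differed between the days. Pgr differed by 1.02 on day 14, Greb1 by 0.98 and Klk1b11 by 2.54, without a test here. S100a8 differed by −0.31, Krt6b by −0.09, Arg1 by −1.01, and Retnla by −1.03 on day 14, against 5.24 on day 7. For Retnla the adjusted p of the change between days was 0.067, so it was not shown to differ.

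**Figure D5:**
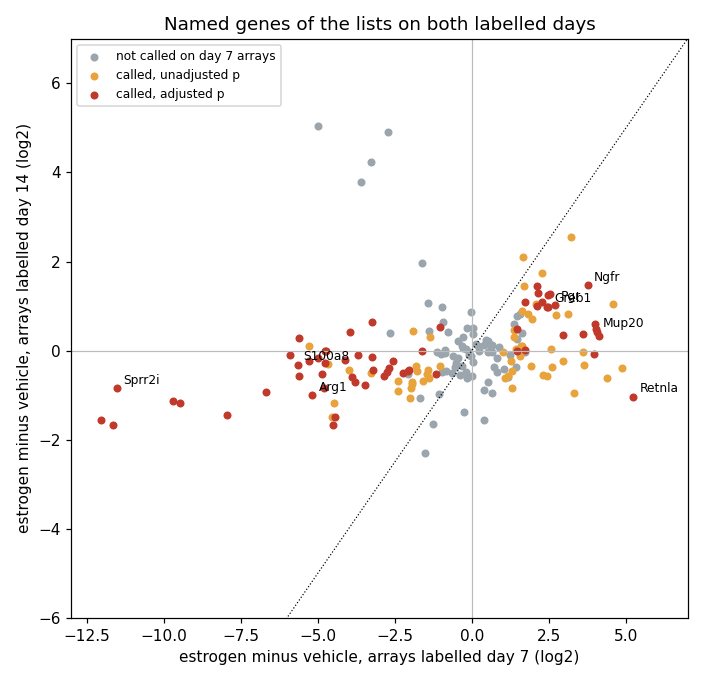
Difference between estrogen and vehicle on arrays labelled day 7 (x axis, log2) and day 14 (y axis, log2) for the genes named from the lists, coloured by their call on the day 7 arrays; the dotted line marks equal differences. Sprr2i, S100a8 and Arg1 lie far left, with day 14 differences of −0.84, −0.31 and −1.01, and Pgr, Greb1 and Ngfr lie above 0 on both axes.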

How the data were processed

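RNA from wounds was labelled with 1 colour and hybridised to Agilent mouse arrays. Per the file headers, the deposited intensity values (gProcessedSignal) were made by the authors' scanner software, Agilent Feature Extraction 11.0.1.1, which subtracts background. The deposited series matrix holds linear ratios that the authors made by dividing each signal by the array's 75th percentile, and their log2 was used as an alternative. Samples were grouped by label, 2 arrays in each of 8 groups.

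Each array's log2 intensity was set relative to its 75th percentile, control spots were left out, and spots of a probe were averaged (39429 probes). Differences were fitted with limma 3.58.1 in R 4.3.3 over all 16 arrays, with 8 residual degrees of freedom, and calls needed p below 0.05 and a change above 2-fold. A gene was read by its brightest tested probe, named through RefSeq (27427 probes named). "At least" folds set the bright group's mean against the dim group's detection limit. The text names the 10 largest adjusted calls in each direction without overlap, and each list's anchor genes and 4 largest differences; others called in a list were named after their values were seen. Lists and members were chosen with earlier results of these data known. The code was tested on simulated data. Alternatives were another background correction and normalization, other filters, blocks and samples, and each array left out. Sequences came from RefSeq GRCm38.p6.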

Additional observations from a re-analysis of the deposited data

Results flagged for a closer look

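The difference between estrogen and vehicle was tested between the arrays labelled day 7 and day 14. It differed at 3 probes with adjusted p (limma). Of the named ones, Gzmn had a day 7 minus day 14 difference of −5.29 ± 0.41 (SE, adjusted p = 0.005) and Sprr2i one of −10.66 ± 1.18 (SE, adjusted p = 0.045). Neither was well above background on the estrogen arrays of day 7, so these values include signals that were not detected. With a replicate block, with the crossed pairing or with probes well above background on all 4 arrays, 0 probes differed. The arrays of each labelled day lay on slides of their own and were scanned on a day of their own, so labelled day and scan day cannot be told apart.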

How the results depend on the processing

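Of 132 named values called, 0 changed sign under the alternatives tried and 45 lost the call under at least 1, while 29 of 76 named values not called changed sign. The count of 2709 calls became 1579 with normexp and 773 with adjusted p, and ran from 2182 to 2686 when 1 array was left out. The count of 773 adjusted calls became 347 with the day 7 arrays only, 365 with the 4 arrays compared only, and 83 to 472 when 1 array was left out: 83 without estrogen replicate 1, 46 higher and 89 lower without estrogen replicate 2, 148 without vehicle replicate 1 and 472 without vehicle replicate 2. A group of 1 array was assumed to vary like the others. The fit with a replicate block gave 414 adjusted calls and 0 probes differing between days. Same-numbered arrays of the estrogen and vehicle groups had deviations correlated at −0.162, and the crossed pairing, added after seeing the data, gave 2681 calls, 517 with adjusted p, and 0 between days. The 3 probes differing between days became 29 with normexp, 7 with quantile normalization, 0 with probes well above background on all 4 arrays, 1 with slide as a fixed block, 1 with slide as a random block, 32 with the spread shared over tested probes only, and from 1 to 54 on leaving out an array (5 without estrogen replicate 2, 1 without vehicle replicate 1, 54 without vehicle replicate 2). The cause was not tested. Signal near background limits the folds of dim probes.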

Other observations

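Among the 279 higher calls that were dim on both vehicle arrays, 40 had levels that correlated with the Vmn1r197 probe at 0.9 or more over the 16 arrays, as a description. Of all probes with complete values, 73 did so. The 279 were chosen by a rule that Vmn1r197 also met, which favours such correlation. Of the 40, 38 were well above background on both WT arrays labelled day 7, 30 on untreated db/db replicate 1 and 1 on untreated db/db replicate 2.

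Uox, urate oxidase, stood at 2.34 and 0.87 with vehicle and at −8.09 and −5.54 with estrogen, where it was well above background on 1 of 2 arrays, and fell (limma, adjusted p = 0.0044). WT and untreated db/db wounds stood between −1.12 and −0.41. Tchhl1, a trichohyalin-like protein gene, fell from 0.23 and −1.04 to −5.06 and −3.65 (limma, adjusted p = 0.028), while most called hair follicle genes rose.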
